A study of Rattus with 6 samples.

Results

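The 7 subunits of respiratory complex I that are encoded in mitochondrial DNA were examined in RNA of isolated ventricular cardiomyocytes of the rat. They were Mt-nd1 (ENSRNOG00000030644), Mt-nd2 (ENSRNOG00000031033), Mt-nd3 (ENSRNOG00000033615), Mt-nd4 (ENSRNOG00000029707), Mt-nd4l (ENSRNOG00000031053), Mt-nd5 (ENSRNOG00000029971) and Mt-nd6 (ENSRNOG00000029042), chosen by these identifiers, and they make up 7 of the 23092 genes counted. All 7 were found in each library and passed the filter on low counts, and none had a count below 7092 in any library. The hypergravity group held 3 libraries of wild-type male Wistar rats aged 8 weeks, exposed to 4 g in a centrifuge for 14 days at 8 h per day. The control group held 3 libraries of wild-type male Wistar rats of the same age that were not exposed. Poly(A)+ RNA was sequenced. Whether each library came from a separate animal is not given in the labels, so the p-values measure the spread between these libraries, which may be technical.

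Complex I, the NADH dehydrogenase, is the entry point of electrons from NADH into the respiratory chain, and it pumps protons across the inner mitochondrial membrane. The mitochondrially encoded subunits form the core of its membrane arm, where the protons are moved, while the other subunits come from nuclear genes. Heart muscle is packed with mitochondria and draws most of its ATP from this chain. The genes for Mt-nd1, Mt-nd2, Mt-nd3, Mt-nd4l, Mt-nd4 and Mt-nd5 follow each other in this order on the heavy-strand transcript, with other genes between them, and are cut out of 1 long precursor. Mt-nd4l and Mt-nd4 stay joined in a shared mRNA. Mt-nd6 alone is transcribed from the light strand, and in human cells its mRNA is known to carry little or no poly(A) tail.

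No complex I transcript was called as changed in level, and the levels of all 7 varied widely between libraries of 1 group. Their proportions to each other varied less. Relative to the other 6, Mt-nd5 was 1.49 times and Mt-nd6 1.54 times as abundant after hypergravity as in the control group, and Mt-nd2 was 0.735 times as abundant. For these 3 genes, and narrowly for Mt-nd4l, the hypergravity and control libraries did not overlap, which made 4 of 7, beside 3.78% of all genes tested when divided by the summed complex I counts. Since these transcripts vary together between libraries, that share is no matched background, and the proportions are given as a description. In a fit over all genes with each library scaled to its summed complex I counts, chosen after the data were seen, 0 of 7 were called (adjusted p = 1 for each, edgeR), beside 0.042% of all genes. That scaling passes the spread of the summed complex I counts on to every other gene, and the fit draws its error partly from all genes. It therefore cannot decide whether the proportions differ.

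The gene counts summed to between 24440690 and 45497422 in a hypergravity library, and to between 25151759 and 33700736 in a control library. The 10 most abundant genes other than the complex I transcripts took 43.4 to 57.5% of these counts after hypergravity and 52.8 to 60.6% in the control group. No library was a copy of another, since chi-square per degree of freedom was at least 29.7 for each pair. Markers of cardiomyocytes and other cell types were not checked, because the identifiers in the files are not paired with gene names.

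The complex I transcripts together took 14.7, 13.4 and 19.2% of the gene counts in the 3 hypergravity libraries. In the control libraries they took 15.3, 14.8 and 11.7%. The means were 15.8 ± 3.05% (SD, n = 3) and 13.9 ± 1.94% (SD, n = 3), and the groups overlapped. The 95% Wilson interval reached no further than 0.0156 percentage points from each of these shares, which covers counting error only. With the 10 most abundant other genes left out of the total, the share was 32.5 ± 11.3% (SD, n = 3) with hypergravity, and the control group had 33.2 ± 7.39% (SD, n = 3), so that the order of the means turned and the groups again overlapped. In bulk RNA, fewer cells of a type and less RNA per cell cannot be told apart, and the same holds for fewer mitochondria and less RNA in each of them.

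Levels were compared as TMM-normalized CPM, that is counts scaled to a common library size, where the trimmed mean of M values sets the scale from the bulk of genes. Gene lengths were not used here, so a level is compared between libraries and not between genes. Mt-nd1, which sits where the membrane arm joins the peripheral arm, had 40809, 26745 and 68113 CPM in hypergravity libraries 1, 2 and 3. In control libraries 1, 2 and 3 it had 52811, 56552 and 29313 CPM. Hypergravity library 3 was the highest and hypergravity library 2 the lowest of all 6, so that the control libraries lay between them. The log2 fold change was -0.03 (standard error 0.41, adjusted p = 0.979, edgeR's quasi-likelihood test).

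Mt-nd4, a subunit of the proton-pumping kind, showed the same order of libraries at the top and the bottom. It had 30341, 20637 and 59380 CPM after hypergravity and 44337, 45786 and 24168 CPM in the control group. The log2 fold change was -0.05 (standard error 0.44, adjusted p = 0.969, edgeR). Mt-nd2, another proton-pumping subunit, had 29892, 21081 and 60228 CPM after hypergravity and 59207, 55089 and 30477 CPM in the control group. Here hypergravity library 3 and control library 1 were nearly level, and hypergravity libraries 1 and 2 were both below each control library. The log2 fold change was -0.38 (standard error 0.44, adjusted p = 0.739, edgeR).

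Mt-nd5, the largest of the proton-pumping subunits, had 20886, 13999 and 35398 CPM after hypergravity. In the control libraries it had 19119, 22567 and 11362 CPM. The lowest value of all was now in a control library and the highest in hypergravity library 3, while the other 4 values were mixed. The log2 fold change was 0.41 (standard error 0.40, 95% interval -0.52 to 1.33, adjusted p = 0.684, edgeR). Mt-nd6, the subunit from the light strand, had 362, 329 and 710 CPM after hypergravity and 349, 455 and 196 CPM in the control group. Its log2 fold change, 0.49, was the highest of the 7 (standard error 0.38, 95% interval -0.40 to 1.37, adjusted p = 0.604, edgeR).

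The remaining transcripts are those of small hydrophobic subunits. Mt-nd3 had 4795, 2700 and 8438 CPM after hypergravity and 8491, 7088 and 3658 CPM in the control group. Its log2 fold change was -0.27 (standard error 0.46, adjusted p = 0.824, edgeR). Mt-nd4l had 3218, 2454 and 6354 CPM after hypergravity and 4639, 3522 and 2043 CPM in the control group. Its log2 fold change was 0.24 (standard error 0.42, adjusted p = 0.834, edgeR). In both cases the groups overlapped.

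**Figure D1:**
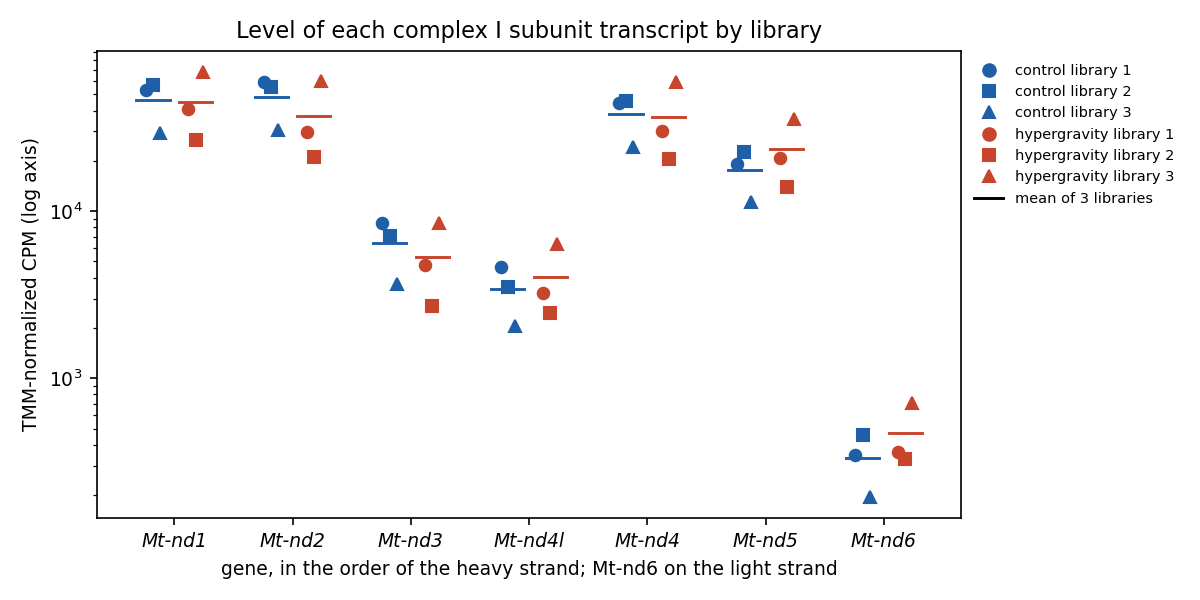
TMM-normalized CPM (log axis) of each complex I transcript in the 6 libraries, with control libraries in blue, hypergravity libraries in red, 1 symbol for each library and a line at the mean of 3 libraries. The groups overlapped for all 7 genes, and hypergravity library 3 lay above hypergravity libraries 1 and 2 for each gene.

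Of the 7 transcripts, 0 were called at an adjusted p-value under 0.05 (edgeR), where 0.0336% of the 11905 genes tested were called. At an unadjusted p-value under 0.05 the count was 0 of 7 beside 13.6% of all genes, and the count was likewise 0 of 7 at either threshold with DESeq2, beside 3.04 and 13.4% of all genes, and with limma-voom, beside 0.0336 and 14.2%. The normalized levels of 0 of 7 did not overlap between the groups, beside 21.8% of all genes. The intervals were wide: a log2 fold change between -0.40 and 0.63 lay within the 95% interval of every one of the 7. For each gene the highest library was from 2.55 to 3.63 times the lowest.

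The direction of several transcripts rested on the scaling or on a single library. Leaving out hypergravity library 2 turned Mt-nd1, Mt-nd3 and Mt-nd4, leaving out hypergravity library 1, control library 1 or control library 2 turned Mt-nd1 and Mt-nd4, and leaving out control library 3 turned Mt-nd4l. Leaving out hypergravity library 3 turned Mt-nd4l and Mt-nd5. With scaling to library size alone, which shifted the median of all genes from -0.02 to 0.32 on the log2 scale, the value was 0.67 (standard error 0.25, unadjusted p = 0.0130, adjusted p = 0.483, edgeR) for Mt-nd5 and 0.78 (standard error 0.35, unadjusted p = 0.0345, adjusted p = 0.572, edgeR) for Mt-nd6. In that fit 2 of 7 had an unadjusted p-value under 0.05, beside 8.05% of all genes. Without hypergravity library 3, Mt-nd5 had a log2 fold change of -0.02 and Mt-nd6 of 0.05, and Mt-nd2 reached -0.92 (standard error 0.39, unadjusted p = 0.0482, adjusted p = 0.302, edgeR), beside 16.4% of all genes with an unadjusted p-value under 0.05. With TMM scaling on all 6 libraries, with scaling to library size alone and without hypergravity library 3, Mt-nd2 had the lowest and Mt-nd6 the highest value of the 7. A change of scaling moves all 7 nearly alike, so it has little bearing on their order. Without control library 1, Mt-nd4l (0.523) was above Mt-nd6 (0.516).

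**Figure D2:**
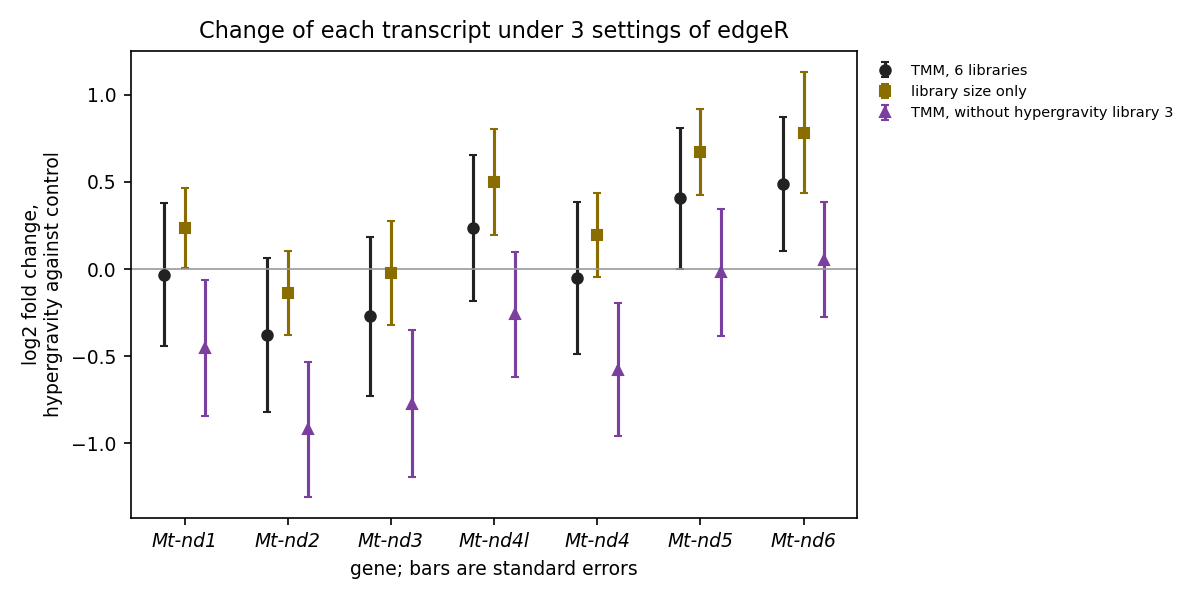
Log2 fold change of each complex I transcript, hypergravity against control, with its standard error, from edgeR with TMM scaling on all 6 libraries, with scaling to library size alone, and with TMM scaling without hypergravity library 3. The values moved up or down together between settings, and Mt-nd2 stayed lowest and Mt-nd6 highest in each of the 3.

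As shares of the total gene count, with no further scaling, Mt-nd5 took 2.36, 2.13 and 2.85% in the hypergravity libraries and 1.55, 1.75 and 1.31% in the control libraries. Mt-nd6 had 409, 500.4 and 571 CPM of the total after hypergravity and 282, 352 and 226 CPM in the control group. On this scale each hypergravity library was above each control library for both genes. These were 2 of the 7, beside 12.3% of all genes tested whose shares did not overlap. The shares of the other 5 overlapped. The 95% Wilson interval of a single transcript's share reached no further than 0.00903 percentage points from it.

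The proportions among the complex I transcripts do not depend on how libraries are scaled to each other. Mt-nd5 made up 16.0, 15.9 and 14.8% of the summed complex I counts in hypergravity libraries 1, 2 and 3. In control libraries 1, 2 and 3 it made up 10.1, 11.8 and 11.2%. The lowest hypergravity library was therefore well above the highest control library, and the means were 15.6 ± 0.660% (SD, n = 3) and 11.1 ± 0.860% (SD, n = 3). On the log2 scale its ratio to the other 6 was higher by 0.57 after hypergravity, beside a pooled SD of 0.10 between libraries.

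Mt-nd2 moved the other way. It made up 22.9, 24.0 and 25.2% after hypergravity and 31.3, 28.8 and 30.1% in the control group, with means of 24.1 ± 1.15% (SD, n = 3) and 30.1 ± 1.25% (SD, n = 3). All hypergravity libraries lay below all control libraries. The difference in its log2 ratio to the other 6 was -0.44, beside a pooled SD of 0.09.

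Mt-nd6 made up 0.278, 0.374 and 0.297% after hypergravity and 0.185, 0.238 and 0.193% in the control group. The difference in its log2 ratio was 0.62, beside a pooled SD of 0.21. Its groups were apart, though less clearly than those of Mt-nd5. Mt-nd4l made up 2.47, 2.79 and 2.66% after hypergravity and 2.46, 1.84 and 2.02% in the control group. Its groups were separated only by the small step between hypergravity library 1 and control library 1, with a difference in log2 ratio of 0.34 and a pooled SD of 0.17.

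The other proportions overlapped between the groups. Mt-nd1 came to 30.1 ± 1.41% (SD, n = 3) with hypergravity and 28.8 ± 0.832% (SD, n = 3) without. Mt-nd4 came to 23.9 ± 0.876% (SD, n = 3) and 23.8 ± 0.267% (SD, n = 3), the closest means of the 7. Mt-nd3 came to 3.43 ± 0.319% (SD, n = 3) and 3.94 ± 0.483% (SD, n = 3). In all, 4 of the 7 proportions did not overlap. When the count of every gene tested was divided by the summed complex I counts in the same way, 3.78% did not overlap. Which transcripts stood apart depended in part on the reference. Against the geometric mean of the other 6, Mt-nd3 (-0.40) and Mt-nd4 (-0.16) also did not overlap, Mt-nd4l (0.22) did, and Mt-nd1 turned from 0.09 to -0.10 on the log2 scale, while Mt-nd2, Mt-nd5 and Mt-nd6 stayed apart. That made 5 of 7, beside 3.78% of all genes divided by the geometric mean of the 7. The complex I transcripts vary together between libraries, which narrows the spread of their own ratios, so that these shares are a description and not a matched background. In the fit scaled to the summed complex I counts, the log2 fold change was 0.50 for Mt-nd5 (standard error 0.26, unadjusted p = 0.0571, edgeR), -0.32 for Mt-nd2 (standard error 0.22, unadjusted p = 0.147) and 0.62 for Mt-nd6 (standard error 0.52, unadjusted p = 0.233). At an unadjusted p-value under 0.05 it called 0 of 7, beside 1.69% of all genes. The fit draws its error partly from all genes, which take on the spread of the summed complex I counts by this scaling. It therefore cannot decide whether the proportions differ.

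**Figure D3:**
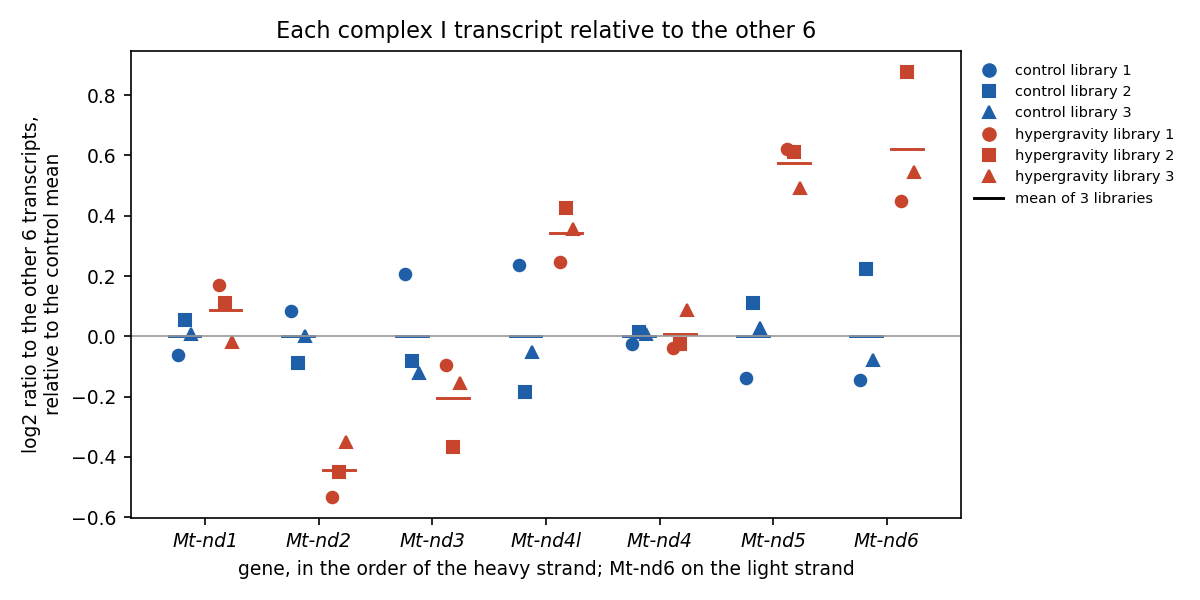
Log2 ratio of each complex I transcript to the other 6 summed, relative to the mean of the control libraries, with 1 point for each library and a line at the mean of 3 libraries. Mt-nd5 and Mt-nd6 lay above the control libraries in each hypergravity library and Mt-nd2 below them, while on this reference Mt-nd1, Mt-nd3 and Mt-nd4 overlapped and Mt-nd4l was separated only narrowly.

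Because a proportion falls when another rises, the transcripts were also compared pair by pair. Mt-nd5 had 0.699, 0.664 and 0.588 counts for each count of Mt-nd2 in the hypergravity libraries. In the control libraries it had 0.323, 0.410 and 0.373. The means were 0.650 ± 0.0568 (SD, n = 3) and 0.368 ± 0.0435 (SD, n = 3), a difference of 0.82 on the log2 scale with no overlap. Mt-nd6 against Mt-nd2 differed by more, 0.94 on the log2 scale, with a wider pooled SD of 0.24. Mt-nd1 stood lower against Mt-nd5 after hypergravity, with a difference in log2 ratio of -0.44 and a pooled SD of 0.05, the smallest of all pairs. Mt-nd2 was lower against Mt-nd1 by 0.38 and against Mt-nd4 by 0.33, in each case with no overlap. Against Mt-nd3 the difference was -0.13 with a pooled SD of 0.15, and the groups overlapped.

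Of the 21 pairs, 14 had ratios that did not overlap between the groups, or 66.7%, beside 20.4% of all pairs among the 11863 tested genes with a count in each library. The 21 pairs rest on 7 genes and are not independent of each other. Since these transcripts vary together, the share over all pairs is again no matched background. The ratios of Mt-nd5 and of Mt-nd6 to Mt-nd1, Mt-nd2, Mt-nd3 and Mt-nd4 were all higher after hypergravity with no overlap, and those among Mt-nd4l, Mt-nd5 and Mt-nd6 overlapped. The count of Mt-nd6 was 1.74, 2.35 and 2.00% of that of Mt-nd5 after hypergravity and 1.82, 2.02 and 1.72% in the control group, so that this pair from opposite strands overlapped.

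Mt-nd4l and Mt-nd4 are read from the same mRNA, yet their ratio was among those that did not overlap. There were 0.106, 0.119 and 0.107 counts of Mt-nd4l for each count of Mt-nd4 after hypergravity and 0.105, 0.0769 and 0.0845 in the control group. Control library 1 lay only just below hypergravity library 1, the lowest of its group. The reading frames of the pair overlap, and reads that fall on more than 1 gene are assigned to none by the counting, so that part of the shared mRNA is missing from both counts. Alignments on several genes made up 2.83 to 3.56% of the listed alignments after hypergravity and 3.52 to 4.01% in the control group. Their part in this ratio was not tested.

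**Figure D4:**
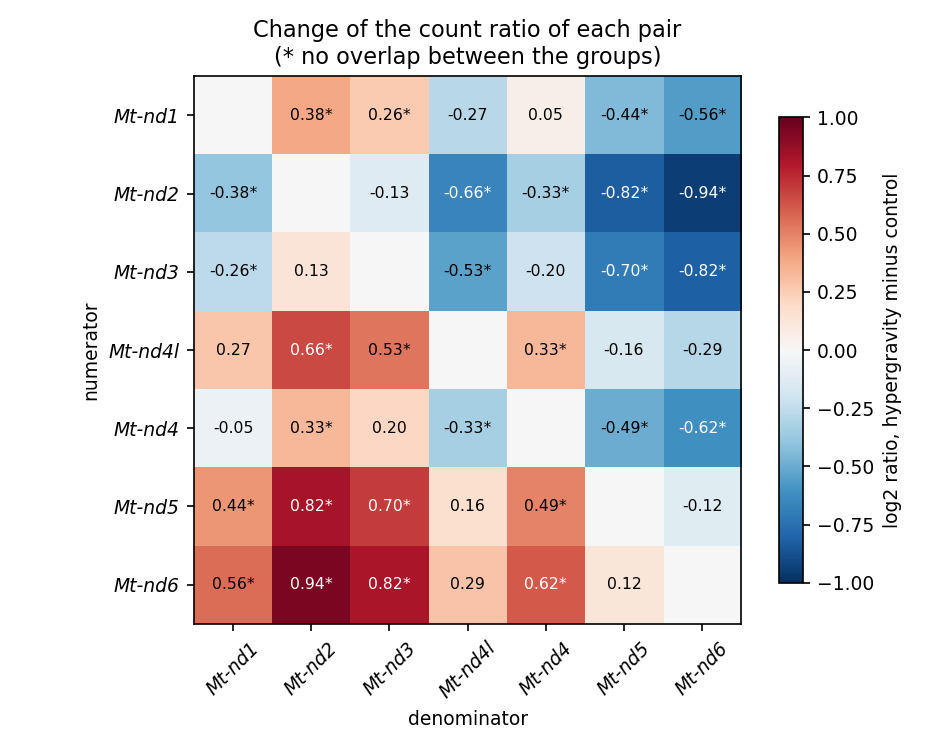
Difference between hypergravity and control in the log2 count ratio of each pair of complex I transcripts, row over column, with an asterisk where the 3 hypergravity and 3 control libraries did not overlap. The rows of Mt-nd5 and Mt-nd6 are positive against Mt-nd1, Mt-nd2, Mt-nd3 and Mt-nd4, and the row of Mt-nd2 is negative throughout, from -0.13 against Mt-nd3 to -0.94 against Mt-nd6.

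Another property of the libraries moved with these proportions. Alignments that the counting step assigned to no feature made up 4.07 to 4.40% of the listed alignments in the hypergravity libraries and 2.85 to 3.20% in the control libraries, again with no overlap. Their part in the proportions was not tested. The counts of a transcript can also hold reads of the other strand, or lose reads shared with copies of mitochondrial DNA in the nuclear genome. The library kit in the labels keeps strand, but whether the counting used it is not given in the sources used here. Without strand, reads of Mt-nd6 and of heavy-strand RNA opposite to it cannot be told apart.

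Across the 6 libraries the levels of the complex I transcripts followed each other, which is given as a description of libraries that share depth and scaling. Pearson's r of the log2 normalized levels was highest between Mt-nd1 and Mt-nd4 (0.993) and lowest between Mt-nd2 and Mt-nd6 (0.601). Mt-nd5 and Mt-nd6 followed each other with r = 0.960, while Mt-nd5 and Mt-nd2 gave 0.705. Among 6761 other genes with a mean of at least 5 CPM, the genes listed as ENSRNOG00000007738 (r = 0.994) and ENSRNOG00000010189 (r = 0.985) were the most like the mean of the 7 over these 6 libraries. Their levels ran from 23.5 to 28.6 CPM and from 28.4 to 59.6 CPM, with hypergravity library 2 lowest and hypergravity library 3 highest for both.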

How the data were processed

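The deposited values are raw counts of reads per gene, 1 table for each of the 6 libraries. Per the labels, the authors used FastQC, Trimmomatic, HISAT2 and HTSeq with the rat genome mRatBN7.2; versions, annotation and strand setting are not given in the sources used here. The 5 HTSeq summary categories were left out of library sizes and tests. Hypergravity was compared with control over all genes with edgeR (version 4.0.16, R 4.3.3): filterByExpr, TMM factors and the quasi-likelihood test, with Benjamini-Hochberg adjusted p-values over 11905 genes and a threshold of 0.05. Standard errors were derived as log2 fold change over the square root of F. Proportions and ratios were computed from raw counts. The alternatives were DESeq2 (version 1.42.0), limma-voom (limma 3.58.1), other scalings and filters, a block for the replicate number, and fits that left out 1 library each. The procedures were tested on simulated counts with a common spread for all genes and changes larger than those of the complex I transcripts. That test therefore does not cover changes of their size. All complex I transcripts were to be named, with the genes most like them. The genes and lists were chosen with earlier results of these data known. The reference table matched 0 Ensembl identifiers, so nuclear-encoded complex I subunits, assembly factors, other mitochondrial genes, cell type markers, sequences and gene positions were not analysed here.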

Additional observations from a re-analysis of the deposited data

How the results depend on the processing

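No complex I transcript was called under any of the 16 alternatives. Scaling to library size alone turned Mt-nd1 to 0.24 and Mt-nd4 to 0.19 on the log2 scale. Leaving the 10 most abundant genes out of the scaling turned Mt-nd1 to 0.0023. With each library left out in turn, Mt-nd1 ran from -0.45 to 0.26, Mt-nd3 from -0.77 to 0.064, Mt-nd4 from -0.58 to 0.26, Mt-nd4l from -0.26 to 0.52 and Mt-nd5 from -0.018 to 0.69, each with both signs, while Mt-nd2 (-0.92 to -0.08) and Mt-nd6 (0.05 to 0.79) kept theirs. With each library scaled to its summed complex I counts, an alternative chosen after seeing the data, Mt-nd1 turned to 0.061 and Mt-nd4 to 0.0066, and Mt-nd5 (0.50), Mt-nd2 (-0.32) and Mt-nd6 (0.62) were not called (unadjusted p = 0.0571, 0.147 and 0.233, adjusted p = 1 for each, edgeR). This scaling widens the spread of the other genes, from which the fit draws part of its error, so it cannot decide on the proportions.

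The differences in the log2 ratio to the other 6 moved with the geometric mean as the reference to -0.10 for Mt-nd1, -0.54 for Mt-nd2, -0.40 for Mt-nd3, -0.16 for Mt-nd4 and 0.42 for Mt-nd5; then 5 of 7 did not overlap, beside 3.78% of all genes, with Mt-nd3 and Mt-nd4 added and Mt-nd4l lost. As these transcripts vary together, that share is no matched background. With each library left out, Mt-nd5 ran from 0.50 to 0.63, Mt-nd6 from 0.50 to 0.74 and Mt-nd2 from -0.49 to -0.40. Without the 10 most abundant other genes in the total, the summed share was 33.2% in the control group and 32.5% after hypergravity, higher because the total is smaller by construction, and with the order of the group means turned.

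The count of genes called over all genes, 4 in edgeR, was 326 with DESeq2, 1 with library size alone, 15 without a filter, 0 with a replicate block and from 0 to 1 with each library left out; the causes were not tested. Deviations from the group means correlated between same-numbered libraries with -0.468, -0.107 and 0.209, and the replicate numbers were not taken as pairs. The replicate block turned no complex I transcript. The alternatives for nuclear gene lists were not run, and of the mitochondrial genes only the 7 complex I transcripts were left out of the scaling, because identifiers are not paired with names. The smallest count of a complex I transcript in a library was 7092; no alternative varied depth.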
